A study of Arabidopsis thaliana with 14 samples.

Results

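The hourly course of an extended night was followed in whole rosettes of Arabidopsis thaliana Columbia-0 on 10 of the 14 Affymetrix ATH1 arrays of the series. These were all arrays labelled from -2 h to 8 h, counted from the usual end of darkness. The arrays of 24 h and 48 h of extended night, 4 in number, lie outside it. One array was taken at -2 h, 3 at the end of the night (0 h; A, B and C), 1 at 2 h, 2 at 4 h (A and B), 1 at 6 h and 2 at 8 h (A and B). All plants were wild type and 5 to 6 weeks old, had been moved out of short days into a 14 h photoperiod with a 10 h night, and were harvested in the vegetative state and frozen in darkness. Each sample pooled 3 rosettes, with biotin label made from roughly 10 µg of total RNA. The course therefore has 6 time points and no array of plants that were given light at the usual dawn. Hours in darkness and time of day advance together in it and cannot be told apart. The labels do not say whether arrays of one time came from separate harvests, so the spread between them may be technical. P-values of differences between times rest on that spread. Those of slopes rest on the scatter around a fitted line, which also includes any bend in the course.

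In a normal day, leaves live at night on starch laid down in the light, and the store is nearly used up at dawn. When the night goes on past dawn, the plant runs out of sugar within hours. The SnRK1 kinase, which senses low energy, is known to switch on genes that break down amino acids, lipids and cell contents, while ribosome production, growth and biosynthesis are turned down. The circadian clock keeps running in the dark and moves many transcripts at its own hours.

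Values are log2 signals, so 1 unit is a factor of 2, and levels are not compared between genes. Arrays of the same time correlated at 0.988 to 0.993 across probe sets. The leaf gene RCA (Rubisco activase) read 12.93 to 14.03 on the 10 arrays, and the root hair expansin EXPA7 read 5.71 to 6.32. The guard cell lineage gene FMA read 8.00 to 8.44. These were the only markers measured of 26 loci listed for 6 tissues, and no phloem, xylem or flower marker was among them. In rosettes, fewer cells of a type and less RNA per cell cannot be told apart. The 3′ minus 5′ difference of the GAPDH control, a sign of RNA integrity, spanned 0.16 to 1.16 and averaged 0.57 at 8 h, against 0.63 at the end of the night.

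A straight line over hours was fitted to the 10 arrays for each of 22746 probe sets with limma. Many transcripts moved along it: 8236 probe sets, or 36.2%, had a slope called at a Benjamini-Hochberg adjusted p under 0.05. Of these, 3747 rose (16.5% of all tested) and 4489 fell (19.7%). Most moved gently, with a median called slope of 0.094 log2 units per hour among the rising and -0.095 among the falling. The 8 h mean lay at least 2-fold above the end of night mean for 1217 of the rising probe sets and at least 2-fold below it for 1480 of the falling ones. The balance of directions depended on scaling. Rising probe sets were 45.5% of the calls as deposited and 56.1% after each array was centred on its median (4872 rising and 3813 falling), because the array medians drift slightly, to 6.64 and 6.67 at 8 h against 6.71 to 6.74 at the end of the night.

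Genes are named here from probe sets with exactly 1 annotated gene. Among the other probe sets, 3 rose and 1 fell more steeply than any named below, with slopes of up to 0.86 and of -0.65. Of the 8 largest named rises, 4 were enzymes that break down amino acids. IVD, isovaleryl-CoA dehydrogenase of leucine breakdown, read 6.88 at -2 h, 6.94, 7.10 and 6.32 at the end of the night, 8.49 at 2 h, 11.69 and 11.43 at 4 h, 12.54 at 6 h, and 12.56 and 12.32 at 8 h. It stayed low up to the end of the night, was above all 3 end of night arrays at 2 h and had levelled off by 6 h. Its slope was 0.71 ± 0.08 log2 units per hour (SE, adjusted p = 4.33e-05), and its 8 h mean was 50.3 times the end of night mean. MGL, methionine gamma-lyase, read 6.79 at -2 h, 7.18, 7.36 and 6.40 at the end of the night, 7.66 at 2 h, 10.96 and 10.58 at 4 h, 12.08 at 6 h, and 12.09 and 11.86 at 8 h. The bulk of that rise fell between 2 h and 4 h. ALDH7B4, an aldehyde dehydrogenase of the lysine route, had the smallest standard error of these, with a slope of 0.54 ± 0.05 (adjusted p = 8.96e-06) and a 19.4-fold difference between 8 h and the end of the night. The remainder of these 8 rises were MCCA, the alpha subunit of methylcrotonyl-CoA carboxylase, an enzyme of leucine breakdown (24.6-fold), and 4 loci that carry no symbol in the annotation used: AT3G62550 (61.1-fold), AT1G72060 (38.8-fold), AT1G19530 (21.5-fold) and AT4G37220 (16.6-fold).

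AT3G62550 was the one of these whose single -2 h array stood well away from the end of the night. It read 8.54 at -2 h, 7.08, 7.13 and 7.14 at the end of the night, 8.55 at 2 h, 11.14 and 11.74 at 4 h, 12.65 at 6 h, and 12.86 and 13.24 at 8 h. Its 2 h and -2 h arrays differed by 0.01 log2 units, and the later arrays were all far above both.

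Of the 8 largest named falls, 7 were loci without a symbol. AT3G15310, annotated as a pseudogene, read 8.31 at -2 h, 8.79, 8.40 and 9.32 at the end of the night, 7.74 at 2 h, 4.83 and 4.74 at 4 h, 4.51 at 6 h, and 4.22 and 4.14 at 8 h. The drop lay mainly between 2 h and 4 h, and its slope was -0.56 ± 0.07 (adjusted p = 0.000125). HYH, the HY5 homolog, a bZIP factor of light signalling, fell later: it read 9.17 at -2 h, 8.96, 9.04 and 9.24 at the end of the night, 9.06 at 2 h, 8.01 and 7.04 at 4 h, 5.92 at 6 h, and 4.35 and 4.65 at 8 h. It was within its end of night range at 2 h and then declined through every later time, with a slope of -0.52 ± 0.05 (adjusted p = 2.96e-05). The other large falls were AT1G73600, AT2G19650, AT4G21870, AT2G15020, AT3G28270 and AT5G42760, which at 8 h lay 12.1-fold to 16.3-fold below the end of the night.

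The contrasts of each time with the end of the night, from a limma fit of all 14 arrays with time as a factor, give the same course without a line. They share the end of night arrays and are not independent of each other. At -2 h, 2 probe sets were called (0.00879%; 946 had an unadjusted p under 0.05), both lower than at the end of the night. At 2 h, 99 were called (0.435%), 89 higher and 10 lower, from 1 array. At 4 h there were 3700 (16.3%), with 1703 higher and 1997 lower. At 6 h there were 4091 (18.0%), with 1885 higher and 2206 lower. At 8 h there were 6310 (27.7%), with 2893 higher and 3417 lower. In the values as deposited, rises led at 2 h, and from 4 h on the falls were the more numerous. The split by direction was not counted after median centring, which reversed the balance of slope calls. The median standard error of a difference was 0.191 at 2 h and 6 h and 0.151 at 4 h and 8 h, so part of the step between these times is the number of arrays. Without 4 h replicate A the 4 h count was 1759, and without 4 h replicate B it was 1901. Leaving out end of night A, B or C, or 4 h A or B, gave 47 to 63 calls at 2 h. The 7 lettered arrays fitted with the letter as a replicate block gave 6108 calls at 4 h. End of night C, the only array of its letter in the course, adds nothing to the differences between times in that fit.

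Counted by size in the values as deposited, without a test, rises were ahead of falls up to 6 h. Higher by at least 2-fold than at the end of the night were 193 probe sets at 2 h, 759 at 4 h, 1257 at 6 h and 1250 at 8 h. Lower by at least 2-fold were 61, 627, 1237 and 1533 at the same times. By size the falls were the more numerous at 8 h alone, whereas by calls they were so from 4 h on. The number of large rises differed little between 6 h and 8 h, and that of large falls was higher at 8 h than at 6 h.

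Onset was read for each called slope as the first of 2, 4, 6 or 8 h from which every array through 8 h lay beyond all 3 end of night arrays in the slope's direction. Most called probe sets were already outside at 2 h: 2087 of the 3747 rising (9.18% of all tested) and 2354 of the 4489 falling (10.3%). Onset was at 4 h for 845 rising (3.71%) and 1250 falling (5.50%), and at 6 h for 573 rising (2.52%) and 607 falling (2.67%). At 8 h it came for 71 rising (0.312%) and 100 falling (0.440%), and 171 rising and 178 falling probe sets had none. Among all probe sets with a positive fitted slope, called or not, 21.3% had an onset of 2 h by this rule, and 23.3% of those with a negative one, so an onset of 2 h rests partly on how narrow the range of 3 arrays is. The single -2 h array lay above the end of night range for 29.4% of all probe sets and below it for 22.0%. These shares mix the narrow range with any change between -2 h and the end of the night.

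With a margin most called probe sets had no onset. When the arrays had to lie beyond the range by 0.5 log2 units, 303 rising and 191 falling probe sets qualified at 2 h, 587 and 846 at 4 h, 624 and 734 at 6 h, and 233 and 290 at 8 h, while 2000 of the 3747 rising and 2428 of the 4489 falling had none. With a margin of 1 unit, 104 rising and 15 falling probe sets qualified at 2 h, 236 and 242 at 4 h, 250 and 441 at 6 h, and 115 and 178 at 8 h, and 3042 rising and 3613 falling had none. At both margins, in the values as deposited, the rising outnumbered the falling at 2 h and the falling outnumbered the rising at 4 h, 6 h and 8 h.

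**Figure D1:**
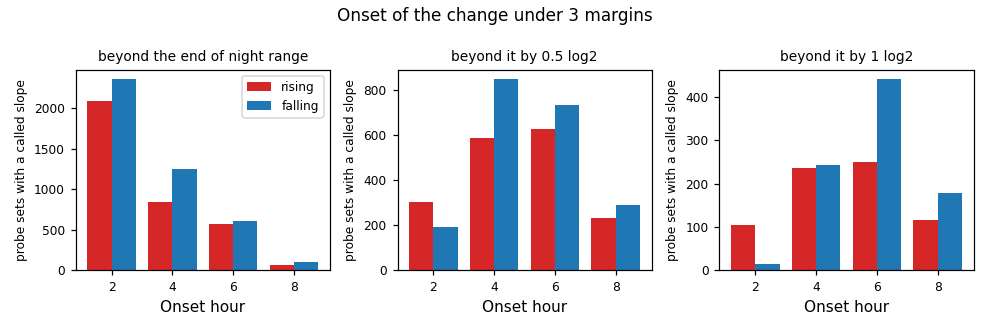
Number of probe sets with a called slope (y axis) by onset hour (x axis), rising in red and falling in blue, for arrays beyond the end of night range (left), beyond it by 0.5 log2 units (middle) and by 1 log2 unit (right). Without a margin the 2 h bars are the tallest, at 2087 rising and 2354 falling; with a margin of 1 unit they shrink to 104 and 15.

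Among the 1217 rising and 1480 falling probe sets with a called slope and at least a 2-fold difference, the half-change time was the interpolated hour at which the course had covered 50% of the difference between the end of the night and 8 h. Its median was 3.08 h for the rising (interquartile range 2.27 to 3.95 h) and 3.46 h for the falling (2.87 to 4.22 h). A half-change before 2 h was seen in 237 rising and 125 falling probe sets. Between 2 h and 4 h there were 693 rising and 917 falling, between 4 h and 6 h 258 and 390, and after 6 h 29 and 48. The typical rising probe set had covered 27.4% of its 8 h change at 2 h, 69.1% at 4 h and 93.5% at 6 h. The typical falling one had covered 21.3%, 60.8% and 83.8% at those times. Leaving out 1 array at a time put the rising median at 2.90 to 3.28 h and the falling one at 3.29 to 3.65 h, so the ranges lay next to each other without overlapping, and the difference between the directions was not tested.

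Markers of low energy were among the early rises. AKINBETA1, a beta subunit of the SnRK1 kinase complex that is itself a sugar starvation marker, read 9.40 at -2 h, 10.23, 10.08 and 10.26 at the end of the night, 11.50 at 2 h, 12.24 and 12.00 at 4 h, 12.30 at 6 h, and 12.40 and 11.87 at 8 h. It was lowest at -2 h and reached its half-change at 1.49 h (1.28 to 2.02 h when any 1 array was left out). The other measured starvation marker, ATL8, a RING-finger protein, had a half-change at 2.42 h (2.20 to 2.52 h) and a 15.0-fold difference at 8 h. Both of these 2 markers, the only ones measured of 12 listed loci, rose and had an onset of 2 h, as had 55.7% of all rising calls. The half-change of ATL8 lay within the interquartile range of all rising ones (2.27 to 3.95 h). Of 4 measured SnRK1 subunits, AKINBETA1 was the one called, and the slopes of the others lay between -0.041 and 0.014.

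SDP1, the triacylglycerol lipase that starts oil breakdown, was as early. It read 7.30 at -2 h, 7.71, 7.43 and 7.38 at the end of the night, 8.91 at 2 h, 10.26 and 9.71 at 4 h, 10.11 at 6 h, and 9.91 and 9.24 at 8 h, with a half-change at 1.47 h (1.23 to 1.71 h). AIM1, a multifunctional protein of fatty acid beta-oxidation, rose later, with an onset of 4 h and a half-change at 4.41 h (4.15 to 4.72 h). The lipase was thus at its highest from 4 h to 6 h while the beta-oxidation enzyme was still rising. With the letter as a replicate block on the 7 lettered arrays, the slope of AIM1 was called and that of SDP1 was not (adjusted p = 0.0991). ICL, isocitrate lyase of the glyoxylate cycle, had no called slope (0.011, adjusted p = 0.64).

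Of the senescence-linked transcription factors, WRKY22 was nearly as early, with a half-change at 1.56 h (1.51 to 1.75 h), and others were later. Of 5 measured genes of leaf senescence and chlorophyll breakdown, 4 rose and none fell, beside 16.5% rising and 19.7% falling of all probe sets. With the letter as a replicate block 2 of the 5 rose (3 on the same arrays without the block). WRKY22 read 5.56 at -2 h, 5.93, 6.02 and 6.34 at the end of the night, 7.29 at 2 h, 8.39 and 8.04 at 4 h, 8.16 at 6 h, and 8.01 and 7.89 at 8 h, and its rise of 1.19 ± 0.19 at 2 h was itself called (adjusted p = 0.0348). With the block its slope was not called (adjusted p = 0.0767). WRKY53 had a half-change at 2.62 h and EIN3, the ethylene-response factor, at 2.78 h. Both lay within the interquartile range of all rising half-changes (2.27 to 3.95 h), and with a margin of 0.5 log2 units their onset was 4 h. The slope of SAG101, a senescence-associated lipase-like gene, lost its call without 8 h replicate A (adjusted p = 0.0867). WRKY6 was not called over the whole course (slope 0.047, adjusted p = 0.41): it read 6.25, 5.98 and 6.02 at the end of the night, 6.83 at 2 h, 7.06 and 6.88 at 4 h, 6.93 at 6 h, and 6.49 and 5.83 at 8 h. The arrays from 2 h to 6 h stood above the end of night range, and those of 8 h lay on both sides of it.

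Genes of amino acid breakdown had most of their half-changes between 2 h and 4 h, as had 693 of the 1217 rising probe sets with at least a 2-fold difference. Of 6 measured genes of branched-chain amino acid breakdown, 4 rose and 1 fell, beside 16.5% rising and 19.7% falling of all probe sets. Their median slope was 0.37 against 0.0003 for all probe sets. MCCA was first, with a half-change at 1.84 h (1.76 to 2.18 h), and its rise at 2 h was called (2.51 ± 0.23, adjusted p = 0.00238). IVD at 2.73 h, MCCB, the other carboxylase subunit, at 2.78 h, and ALDH6B2, methylmalonate-semialdehyde dehydrogenase of valine breakdown, at 2.87 h lay close together. The one that fell, AT5G09300, did so by 0.58 log2 units at 8 h, with a slope of -0.09 (adjusted p = 0.00472), and AT2G26800 had no called slope. At 2 h MCCA stood 2.51 log2 units above its end of night mean and MCCB 0.84 above its own, and the difference between these subunits was not tested.

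All 8 measured genes of other amino acid breakdown rose, beside 16.5% of all probe sets, with a median slope of 0.33. All 8 had an onset of 2 h, as had 55.7% of all rising calls, and none was called at 2 h against the end of the night. With a margin of 0.5 log2 units the onset of MGL and AT4G33150 was 4 h. Of the 8 genes, 6 changed at least 2-fold, with half-changes between 2.66 h and 4.09 h. ETFQO, which passes electrons from amino acid oxidation to the respiratory chain, was the earliest, at 2.66 h (2.42 to 2.77 h). ETFBETA, a subunit of the flavoprotein that feeds it, was later, at 3.97 h (3.62 to 4.30 h). The lysine enzyme AT4G33150 (LKR/SDH) was the last, at 4.09 h (3.81 to 4.31 h). It read 7.29 at -2 h, 7.40, 7.32 and 6.38 at the end of the night, 7.57 at 2 h, 9.50 and 8.96 at 4 h, 11.27 at 6 h, and 11.68 and 11.54 at 8 h. LKR/SDH at 2 h was thus only 0.17 above its highest end of night array, while ALDH7B4, further down the same route, was 0.74 above its own.

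Autophagy genes rose over a long span. Of 15 measured, 10 rose (66.7%, beside 16.5% of all probe sets) and none fell, with a median slope of 0.101 and 6 onsets of 2 h, 2 of 4 h and 2 of 6 h. Members of the ATG8 family, small proteins that coat the autophagosome membrane, did not move together. ATG8E was early: it read 9.90 at -2 h, 9.80, 10.15 and 10.14 at the end of the night, 10.77 at 2 h, 11.47 and 11.49 at 4 h, 11.51 at 6 h, and 11.22 and 11.34 at 8 h, with a half-change at 1.70 h (1.61 to 1.83 h). With the replicate block 8 autophagy genes rose, and ATG8E was not called (adjusted p = 0.0863). ATG8B was late: it read 7.12 at -2 h, 7.25, 7.00 and 7.16 at the end of the night, 7.54 at 2 h, 7.74 and 7.68 at 4 h, 8.66 at 6 h, and 9.02 and 9.42 at 8 h, with a half-change at 4.99 h (4.78 to 5.24 h). ATG8E had reached its level by 4 h, and ATG8B was still rising between 6 h and 8 h. APG8A lay between them at 3.76 h and APG8H was the last at 5.45 h. ATG8D had no called slope (-0.005, adjusted p = 0.94) and dipped before it returned, with 8.27, 8.31 and 8.50 at the end of the night, 7.81 at 2 h, 7.69 and 7.59 at 4 h, 8.07 at 6 h, and 8.41 and 8.84 at 8 h.

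**Figure D2:**
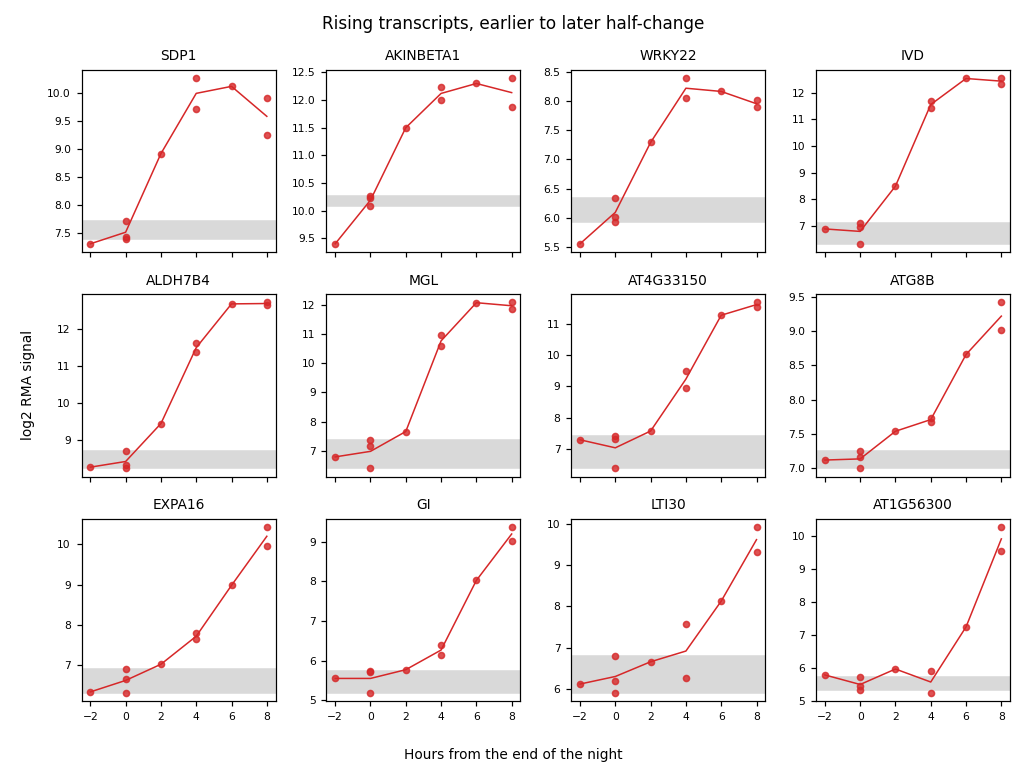
Log2 RMA signal (y axis) by hours from the end of the night (x axis) for 12 rising genes, ordered from an early half-change (SDP1, 1.47 h) to a late one (AT1G56300, 6.34 h). Points are arrays, lines join the means of each time and the grey band is the range of the 3 end of night arrays; the top row has flattened by 4 h to 6 h and the bottom row is still rising at 8 h.

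A further set rose in the last hours. GI (GIGANTEA), a clock gene that peaks late in a normal day, read 5.55 at -2 h, 5.72, 5.74 and 5.19 at the end of the night, 5.77 at 2 h, 6.15 and 6.38 at 4 h, 8.02 at 6 h, and 9.01 and 9.37 at 8 h. Its 2 h array exceeded the end of night range by 0.03, so its formal onset of 2 h says little, and its half-change was at 5.26 h (5.15 to 5.51 h). AT4G33980, on the clock list, had no called slope (0.168, adjusted p = 0.0824) but was higher at 8 h by 2.20 log2 units (adjusted p = 0.000205): it read 4.22 at 2 h, 4.47 and 4.38 at 4 h, 4.57 at 6 h, and 6.35 and 7.25 at 8 h, against 4.91, 4.24 and 4.65 at the end of the night. Its change thus fell after 6 h. COR27, the other clock gene measured, was not called by slope or at 8 h (0.51, adjusted p = 0.155).

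Of the rises with an onset of 6 h, the 4 largest were AT1G56300, AT2G39920, LTI30 and AT4G30660. LTI30, a dehydrin known from cold and drought, read 6.12 at -2 h, 6.80, 5.91 and 6.20 at the end of the night, 6.66 at 2 h, 7.58 and 6.26 at 4 h, 8.13 at 6 h, and 9.31 and 9.93 at 8 h. The 4 h arrays of LTI30 disagreed by 1.32 log2 units, and all later ones were above the end of night range. AT1G56300 read 5.43, 5.73 and 5.31 at the end of the night, 5.96 at 2 h, 5.24 and 5.89 at 4 h, 7.24 at 6 h, and 9.55 and 10.28 at 8 h, a 21.4-fold difference with a half-change at 6.34 h (5.97 to 6.42 h). The slope of AT4G30660 was not called without 8 h replicate A (adjusted p = 0.052). The rises with an onset of 8 h were weaker calls: AT1G16850 read 6.97 and 8.40 at 8 h, against 5.53, 5.50 and 6.17 at the end of the night, and it, PDF1.2 (a plant defensin), AT5G49640 and AT2G32090 each lost the call when 1 array was left out.

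EXPA16, an expansin that loosens cell walls, was another late riser. It read 6.32 at -2 h, 6.88, 6.64 and 6.30 at the end of the night, 7.01 at 2 h, 7.63 and 7.79 at 4 h, 8.98 at 6 h, and 9.97 and 10.44 at 8 h, with a half-change at 5.10 h (4.91 to 5.28 h). Of the 58 measured genes of the cell wall list, 5 rose (8.62%) and 14 fell (24.1%), beside 16.5% and 19.7% of all probe sets, so the falling share was near that of all. With the replicate block 3 rose and 12 fell. EXLA1, an expansin-like gene, rose with a half-change at 3.70 h, and XTH19, a xyloglucan-modifying enzyme, at 6.43 h. Those that fell, such as EXLB1 at 2.93 h, XTH16 at 3.08 h and TBL45, of the family that acetylates wall polysaccharides, at 4.18 h, did so in the middle of the course. The median half-change of the 3 rising was 5.10 h and that of the 8 falling 4.08 h. IAA29, an auxin-response repressor, was the 1 of 7 measured auxin-response genes called, and rose steadily with a slope of 0.33 ± 0.02 (adjusted p = 4.37e-06) and a half-change at 2.97 h.

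Ribosome biogenesis genes that fell had left the end of night range by 2 h. Of 10 measured ribosome biogenesis genes, 5 fell and 1 rose, beside 19.7% falling and 16.5% rising of all probe sets. With the replicate block 1 of the 10 fell (10.0%, beside 14.3% of all probe sets in that fit), against 3 on the same 7 lettered arrays without the block. AT3G15460 read 6.88 at -2 h, 6.90, 6.63 and 6.93 at the end of the night, 6.21 at 2 h, 5.17 and 5.24 at 4 h, 5.08 at 6 h, and 5.18 and 5.35 at 8 h. Its fall was complete by 4 h, with a half-change at 2.33 h (1.92 to 2.41 h), and its slope was not called with the block (adjusted p = 0.0537). AT2G40360 had the same shape at under 2-fold: it read 8.40 and 8.65 at 4 h and 8.46 and 8.56 at 8 h, against 9.53, 9.46 and 9.32 in the end of night arrays. The 5 that fell all had an onset of 2 h, as had 52.4% of all falling calls, and none was called at 2 h against the end of the night. With a margin of 0.5 log2 units the onset of AT3G15460 and AT2G40360 was 4 h, and AT1G52930 and AT5G08180 had none. AT3G22660, which rose, had an onset of 4 h.

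Of 45 measured genes for the cytosolic ribosomal proteins, 23 fell (51.1%) and none rose, beside 19.7% falling and 16.5% rising of all probe sets. After median centring 22 fell (48.9%, beside 16.8%) and 1 rose (2.22%, beside 21.4%). With the replicate block 19 of the 45 fell (42.2%, beside 14.3% of all probe sets in that fit), against 20 on the same arrays without the block. Their median difference from the end of the night was -0.26 at 4 h, -0.30 at 6 h and -0.33 at 8 h, beside medians of -0.017, -0.028 and 0.014 for all probe sets. Ribosome biogenesis genes had medians of -0.37, -0.54 and -0.25 at these times, so the ribosomal proteins were the less changed list at 4 h and 6 h and the lower one at 8 h, and the difference was not tested. Onset was at 2 h for 11, at 4 h for 8 and at 6 h for 3, and 1 had none. AT5G60670 read 11.59 at -2 h, 11.42, 11.50 and 11.46 at the end of the night, 11.20 at 2 h, 10.83 and 10.95 at 4 h, 10.39 at 6 h, and 10.25 and 10.53 at 8 h. AT4G13170 was the other member past 2-fold, with half-changes of 3.43 h for AT4G13170 and 3.78 h for AT5G60670.

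Genes of sucrose and flavonoid synthesis fell as well. ATSPS4F, a sucrose phosphate synthase, read 10.15 at -2 h, 9.24, 9.77 and 9.55 at the end of the night, 8.70 at 2 h, 7.48 and 7.08 at 4 h, 6.41 at 6 h, and 6.38 and 6.01 at 8 h. It was 10.0-fold lower at 8 h, with a half-change at 3.19 h (2.98 to 3.39 h). All 3 measured anthocyanin genes fell, beside 19.7% of all probe sets, each with an onset of 2 h, as had 52.4% of all falling calls. With a margin of 0.5 log2 units the onset of DFR and UF3GT was 4 h, and AT4G14090 had none. With the replicate block 1 of the 3 fell (3 on the same arrays without it). UF3GT and AT4G14090 had early half-changes, at 1.57 h and 1.46 h, and at 8 h lay 1.89-fold and 2.04-fold below the end of the night. Both had partly returned by 8 h. UF3GT read 6.10 at 6 h and 6.46 and 6.73 at 8 h, and AT4G14090 read 5.54 and then 5.61 and 6.04. Half-change is set against the 8 h mean, so such a return makes it earlier. DFR, dihydroflavonol reductase, read 8.81, 8.20 and 8.41 at the end of the night, 8.09 at 2 h, 7.47 and 6.14 at 4 h, 6.44 at 6 h, and 5.58 and 5.48 at 8 h, its 4 h arrays disagreed by 1.33, and its half-change ranged from 3.12 h to 4.92 h when any 1 array was left out. UGT78D1 and UGT78D2, which attach sugars to flavonols, fell by 2.08 and 2.09 log2 units at 8 h, with half-changes at 3.11 h (2.73 to 3.32 h) and 4.22 h (4.16 to 4.32 h).

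The 50 measured UDP-glycosyltransferases moved both ways, with 13 rising (26.0%, beside 16.5% of all probe sets) and 7 falling (14.0%, beside 19.7%). UGT73B1 was the steepest rise: it read 6.29, 5.81 and 6.07 at the end of the night, 7.52 at 2 h, 9.33 and 8.91 at 4 h, 9.86 at 6 h, and 9.78 and 9.54 at 8 h, and was already called at 2 h (1.46 ± 0.22, adjusted p = 0.0253). UGT84A3 rose later, with a half-change at 4.32 h (4.12 to 4.57 h). Of 14 glutathione S-transferases, 5 fell (35.7%) and 1 rose (7.14%), beside the same 19.7% and 16.5%. GSTU20 fell the furthest and late: it read 10.76 at -2 h, 11.01, 10.98 and 11.21 at the end of the night, 10.93 at 2 h, 9.63 and 9.40 at 4 h, 8.16 at 6 h, and 7.58 and 6.81 at 8 h. Of 29 serine carboxypeptidase-like genes, 10 fell (34.5%) and 1 rose (3.45%). Their half-changes were narrow, at 2.36 h to 3.12 h for the 4 that changed at least 2-fold, and scpl46 led with 9.57, 9.61 and 9.54 at the end of the night, 8.92 at 2 h, 7.96 and 8.06 at 4 h, 7.37 at 6 h, and 7.34 and 7.29 at 8 h.

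Among genes of photosynthetic carbon metabolism that fell at least 2-fold, half-changes ran from 3.16 h to 5.01 h. All 4 measured Calvin cycle genes fell, beside 19.7% of all probe sets, with a median slope of -0.103. An onset of 2 h was read for 3 of the 4, beside 52.4% of all falling calls. SBPASE, sedoheptulose-bisphosphatase, read 12.75 at -2 h, 12.66, 12.74 and 12.85 at the end of the night, 12.55 at 2 h, 12.22 and 12.41 at 4 h, 12.02 at 6 h, and 11.63 and 11.54 at 8 h, with a half-change at 5.01 h (4.50 to 5.26 h). RCA, the other one, had its onset at 6 h and fell by 0.68 log2 units at 8 h; with the replicate block its slope was not called (adjusted p = 0.0982). AT1G56190 was earlier, with a half-change at 3.16 h. Of 5 photorespiration genes, 3 fell (60.0%, beside 19.7% of all probe sets), each with an onset of 2 h, as had 52.4% of all falling calls. With a margin of 0.5 log2 units the onset of LrgB was 4 h and that of AT1G11860 and AT1G32470 was 6 h. LrgB is the plastid glycolate and glycerate transporter. It read 12.11, 11.99 and 12.01 at the end of the night, 11.63 at 2 h, 10.94 and 11.00 at 4 h, 10.10 at 6 h, and 8.95 and 9.25 at 8 h. LrgB was the steepest of these lists, with a slope of -0.32 and a 7.65-fold lower level at 8 h. Its half-change was 4.92 h (4.74 to 5.09 h), and that of AT1G11860 was 4.88 h.

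Most genes of the light reactions had no called slope, as was so for most of all probe sets. Of 8 measured, 1 fell and 1 rose (12.5% each), beside 19.7% falling and 16.5% rising of all probe sets. The other 6 were not called, and the median difference of the 8 genes at 8 h was -0.02. LHCB4.3, a minor light-harvesting protein, was the one that fell: it read 11.58 at -2 h, 11.11, 11.25 and 11.50 at the end of the night, 10.65 at 2 h, 9.82 and 10.11 at 4 h, 9.20 at 6 h, and 8.58 and 9.15 at 8 h. Its relative LHCB4.1 was not called and read 13.95 and 13.87 at 8 h, against 13.86 to 13.97 at the end of the night. LHCB4.2 had a small rising slope, 0.042 (adjusted p = 0.0321), that lost its call without the -2 h array and with the replicate block (adjusted p = 0.325).

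Of 8 tetrapyrrole genes, 4 fell and 1 rose, beside 19.7% falling and 16.5% rising of all probe sets. GSA1, CHLI2 and HEME2, which act in the route to chlorophyll and haem, lay 2.26-fold to 2.61-fold lower at 8 h, with half-changes at 3.60 h, 4.10 h and 6.20 h. PORB, the light-dependent protochlorophyllide reductase, went the other way: it read 11.30 at -2 h, 10.90, 10.21 and 10.62 at the end of the night, 10.14 at 2 h, 10.70 and 11.01 at 4 h, 11.52 at 6 h, and 12.02 and 11.87 at 8 h. Its slope was called (adjusted p = 0.039) but not without end of night B or C, 4 h B, 6 h, or either 8 h array. Of 3 starch synthesis genes, APL3, a subunit of ADP-glucose pyrophosphorylase, and SBE2.2, a branching enzyme, fell, with onsets of 4 h and 6 h.

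**Figure D3:**
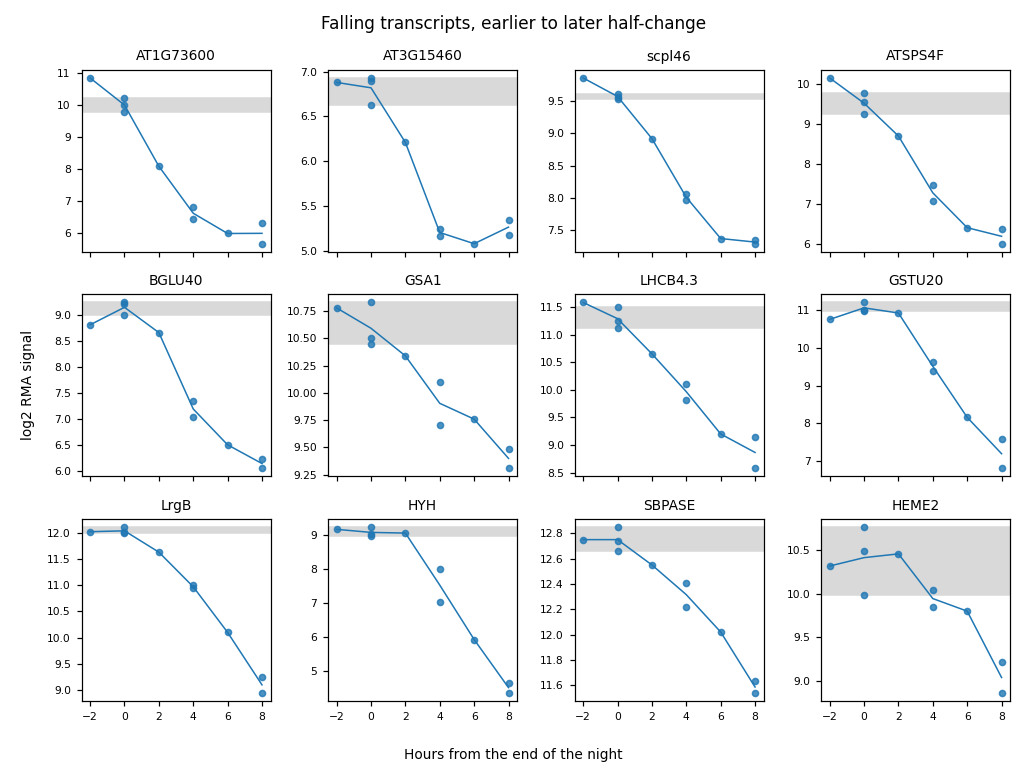
Log2 RMA signal (y axis) by hours from the end of the night (x axis) for 12 falling genes, ordered from an early half-change (AT1G73600, 2.13 h) to a late one (HEME2, 6.20 h). Points are arrays, lines join the means of each time and the grey band is the end of night range; AT3G15460 has levelled off by 4 h, whereas HYH, SBPASE and LrgB are still falling at 8 h.

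Read across functions, the rising half-changes ran from the starvation markers (median 1.96 h, n = 2) through senescence genes (2.62 h, n = 3), branched-chain amino acid breakdown (2.76 h, n = 4) and other amino acid breakdown (3.12 h, n = 6) to autophagy (3.76 h, n = 5) and cell wall genes (5.10 h, n = 3). The falling ones ran from anthocyanin synthesis (2.58 h, n = 2) and serine carboxypeptidase-like genes (3.04 h, n = 4) through ribosomal proteins (3.60 h, n = 2) to the Calvin cycle (4.08 h, n = 2), tetrapyrrole synthesis (4.10 h, n = 3), glutathione S-transferases (4.56 h, n = 3) and photorespiration (4.90 h, n = 2). Between these ends also lay rising UDP-glycosyltransferases (2.74 h, n = 6) and fatty acid breakdown (2.94 h, n = 2). Falling UDP-glycosyltransferases (3.11 h, n = 3) and falling cell wall genes (4.08 h, n = 8) did so too. The medians of all such probe sets were 3.08 h rising and 3.46 h falling. Most of these list medians rest on 2 to 6 genes whose ranges overlap. Autophagy genes spanned 1.70 to 5.45 h and branched-chain genes 1.84 to 2.87 h. The order among functions is a description of these genes and was not tested.

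**Figure D4:**
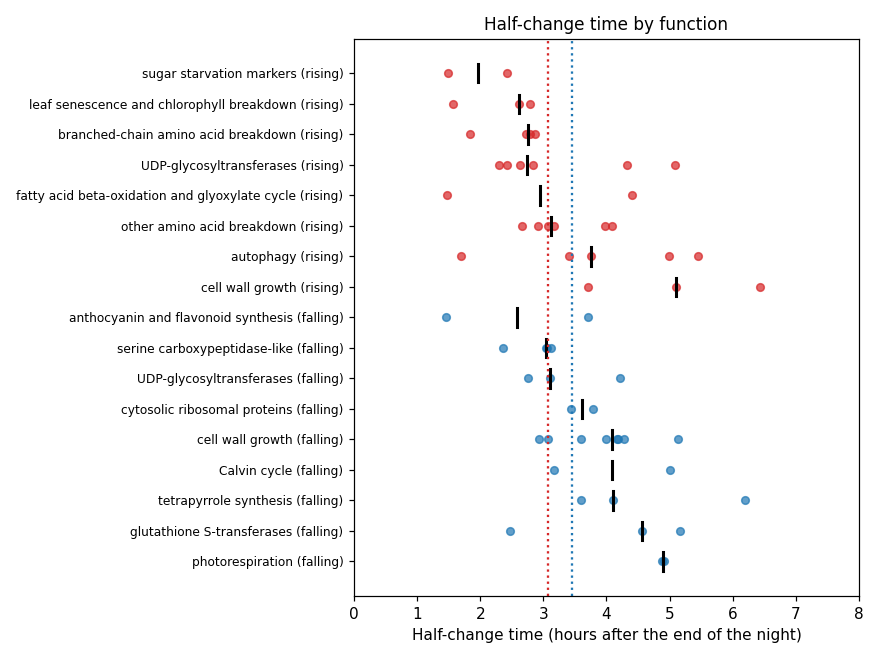
Half-change time in hours after the end of the night (x axis) for list members with a called slope and at least a 2-fold difference, by function (y axis), rising in red and falling in blue; black bars are list medians and dotted lines the medians of all such probe sets (3.08 h rising, 3.46 h falling). Autophagy members spread from 1.70 to 5.45 h, while the 4 serine carboxypeptidase-like genes lie between 2.36 and 3.12 h.

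A departure from the straight line was called for 180 probe sets (0.791%; 2264 had an unadjusted p under 0.05), 42 of them without a called slope. The count depended on single arrays: it was 2 without 4 h A, 4 without 4 h B, 13 without 8 h B, 46 to 87 without end of night A, B or C or without 8 h A, and 273 without 6 h, and a 1-term form on the lettered arrays with the letter as a replicate block called 1580. Of the 180, 130 had a called slope and a 2-fold difference, 109 of them rising. Within these, 105 had covered over 75% of their change by 4 h and 14 less than 25%, so the usual bend was an early rise that levelled off. IVD (adjusted p = 0.0359), MCCA (0.0236) and AT1G72060 (0.0196) had that form. AT3G15440 had the opposite one (adjusted p = 0.00973): it read 3.99, 3.94 and 4.13 at the end of the night, 3.94 at 2 h, 4.31 and 4.17 at 4 h, 6.26 at 6 h, and 7.35 and 7.36 at 8 h.

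Some courses turned. In 16 probe sets (0.0703%) the departure was called and the mean of 2 h, 4 h or 6 h stood at least 1 log2 unit above both the end of night and the 8 h mean. The peak was at 4 h in 12, at 2 h in 3 and at 6 h in 1. In 5 (0.022%) there was a trough, always at 4 h. AT1G69570 read 7.39 at -2 h, 8.24, 9.11 and 8.98 at the end of the night, 10.72 at 2 h, 9.92 and 9.67 at 4 h, 8.87 at 6 h, and 7.97 and 7.93 at 8 h. It was highest at 2 h and lay below its whole end of night range at 8 h. HAT2, a homeodomain-leucine zipper factor, read 7.67 at -2 h, 7.84, 7.78 and 7.66 at the end of the night, 9.21 at 2 h, 10.38 and 9.97 at 4 h, 9.83 at 6 h, and 9.20 and 8.92 at 8 h, and remained above the end of night at 8 h. AT4G30650 had the trough form, with 8.36, 8.19 and 8.06 at the end of the night, 7.47 at 2 h, 6.89 and 6.82 at 4 h, 6.96 at 6 h, and 8.61 and 9.33 at 8 h. Its neighbour in the TAIR10.1 annotation, AT4G30660, read 6.49, 6.63 and 6.69 at the end of the night, 6.27 at 2 h, 6.42 and 6.96 at 4 h, 7.81 at 6 h, and 9.28 and 10.16 at 8 h.

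**Figure D5:**
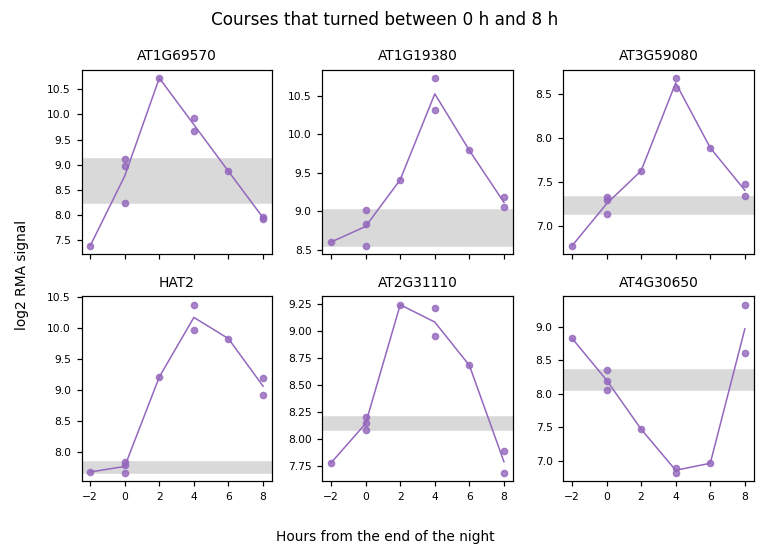
Log2 RMA signal (y axis) by hours from the end of the night (x axis) for 5 genes with a peak and 1 with a trough between 0 h and 8 h. Points are arrays, lines join the means of each time and the grey band is the end of night range; AT1G69570 peaks at 2 h at 10.72 and AT4G30650 has its lowest array, 6.82, at 4 h.

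Of 3 measured starch degradation genes, 1 had a called departure from a line. A shallower trough was seen in that gene, AT5G26570 (PWD), and, without a called departure, in DPE1. AT5G26570 (PWD), phosphoglucan water dikinase, which prepares starch granules for breakdown, read 9.86 at -2 h, 9.44, 9.25 and 9.32 at the end of the night, 8.58 at 2 h, 8.02 and 7.98 at 4 h, 8.04 at 6 h, and 8.62 and 8.69 at 8 h. Its departure was called (adjusted p = 0.0234), and so was its fall of 0.75 at 2 h (adjusted p = 0.0446). DPE1, the plastid disproportionating enzyme, read 8.15 at -2 h, 7.88, 7.85 and 7.21 at the end of the night, 6.84 at 2 h, 7.03 and 6.96 at 4 h, 7.78 at 6 h, and 8.60 and 8.94 at 8 h, with no called slope (adjusted p = 0.357) and an 8 h difference of 1.13 (adjusted p = 0.0164). Both lay below the end of night at 2 h and 4 h. At 8 h DPE1 stood above the end of night range, and PWD remained below it. The slope of PWD was not called without the -2 h or the 6 h array, or with the replicate block (adjusted p = 0.389).

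The last hours of the normal night were seen on 1 array. The 2 probe sets called there, AT1G26790 and AT5G19120, rose into the end of the night and then parted. AT1G26790 read 5.18 at -2 h, 7.45, 7.51 and 7.67 at the end of the night, 7.24 at 2 h, 4.53 and 4.42 at 4 h, 4.33 at 6 h, and 4.28 and 4.20 at 8 h, so it was high for 0 h and 2 h alone. Its -2 h value was 2.36 ± 0.13 below the end of the night (adjusted p = 0.000426). AT5G19120 read 9.47 at -2 h, 11.09, 10.87 and 10.82 at the end of the night, 12.42 at 2 h, 12.89 and 12.81 at 4 h, 12.89 at 6 h, and 12.97 and 12.76 at 8 h. Its half-change was at 1.30 h (1.23 to 2.01 h), and its rise at 2 h was called (1.49 ± 0.15, adjusted p = 0.0035).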

How the data were processed

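Per the submitters' processing notes, the authors' values are log2 signals made with RMA; its version is not given in the sources used here. The deposited log2 table held 22810 probe sets; 64 controls were left out and 22746 tested without a filter. Of these, 13513 had exactly 1 gene in the platform annotation, 503 several and 8730 none, and 13436 matched TAIR10.1, the source of symbols; a gene with several probe sets took the brightest. Precision is limited by how few arrays there are.

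The slope over hours and the departure from it (moderated F-test, 4 terms) were fitted to the 10 arrays of the course with limma 3.58.1 in R 4.3.3 (8 residual degrees of freedom for the slope). Contrasts with the end of the night came from a fit of all 14 arrays, in which times with 1 array take their spread from the replicated times. P-values were adjusted by Benjamini-Hochberg over 22746 probe sets. The scripts were tested on simulated data. Summaries were made in Python 3.11.15 with numpy 2.4.6 and pandas 2.3.3, and drawn with matplotlib 3.10.9.

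Genes named were, among probe sets with exactly 1 gene, the 8 largest called slopes each way, the 4 largest 8 h differences for each onset hour and direction, up to 5 turning courses each way, up to 3 called -2 h differences each way, and at most 4 members with a called slope per list; other genes were named after their values were seen. The members, 32 lists and 14 added lists were chosen with earlier results of these data known. Arrays of one letter deviated together (correlations of 0.332 to 0.530 within the course), so letters were taken to pair samples in the alternative fit with the letter as a replicate block, which uses the lettered arrays alone. End of night C has no partner in the course, so its block takes it up and the end of night rests on A and B in that fit. Promoter sequences were not used here.

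Alternatives covered the threshold, scaling, dim probe sets, the variance prior, the onset margin, the hours fitted, the replicate block and leaving out each array.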

Additional observations from a re-analysis of the deposited data

How the results depend on the processing

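At an adjusted p under 0.01, 11 departures from a line were called, and 35, 1950, 2198 and 4166 differences from the end of the night at 2 h, 4 h, 6 h and 8 h. Departures numbered 302 without the dimmest probe sets and 321 with a trended, robust prior. Slopes fitted to the arrays from the end of the night to 4 h alone, which uses fewer arrays, gave 2250 rising and 2476 falling calls, and turned the sign of 2 late risers, AT1G16850 (-0.041) and AT5G49640 (-0.028), neither called there. With the letter as a replicate block on the lettered arrays, 2517 rising and 3251 falling slopes, 1580 departures (1 term, chosen after seeing the data), 6108 differences at 4 h and 8593 at 8 h were called. Among 28 named genes whose slope was not called under the block were SDP1, WRKY22, ATG8E, RCA, HAT2 and AT3G15460. Without the block the same arrays gave 2826 rising and 3452 falling slopes, 4142 differences at 4 h and 6808 at 8 h. The fits with and without the block also differ in whether end of night C counts. Requiring a margin of 0.5 log2 units left 303 rising and 191 falling onsets at 2 h, and 1 unit left 104 and 15. Leaving out 1 array at a time gave 3107 to 3907 rising and 3992 to 4473 falling slopes, 2 to 273 departures, 47 to 99 calls at 2 h, 1759 to 3700 at 4 h, 3419 to 4091 at 6 h and 4512 to 6310 at 8 h, onsets at 2 h of 2094 to 2407 rising and 2359 to 2862 falling, and median half-changes of 2.90 to 3.28 h rising and 3.29 to 3.65 h falling. The cause of these differences was not tested. Of 2425 slopes of 152 named genes under the alternatives, 2280 were counted as unchanged, 139 lost the call, 4 gained it and 2 called slopes turned sign. Unchanged slopes kept their side of the threshold and their direction, except that slopes called in neither fit could change sign. A call was lost by 23 genes when 1 array was left out. The description of promoter motifs was not run.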
